A study of Vitis vinifera with 6 samples.

Results

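Mutator-like elements (MULEs) are DNA transposons named after the Mutator system of maize. The count table holds 40 MULE families among its 232 transposable element (TE) families, beside 31843 genes, and the members were taken as every row whose superfamily field reads MULE. RNA depleted of ribosomal RNA was measured in 3 samples of embryogenic callus (EC) and 3 samples of young leaf of the grapevine cultivar Chardonnay, with 1 library for each sample. EC is a mass of dedifferentiated, proliferating cells, raised here from anthers and kept in the dark on solid medium, and each EC sample pooled cultures from 3 Petri dishes. Each leaf sample pooled 5 young leaves from the same vines that gave the anthers. Tissue, light and growth on medium differ together between the groups and cannot be told apart. The labels number the samples of a group as replicates, but nothing says that they came from separate culture lines or vines, so the p-values measure the spread between these samples only.

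MULEs are Class II elements that move by excision and re-insertion of DNA, carried out by a transposase that the autonomous copies encode. In maize, MuDR is the autonomous element of the Mutator system, and shorter non-autonomous copies move only when MuDR supplies the enzyme. Plant genomes hold MULEs in silenced chromatin through RNA-directed DNA methylation, in which small RNAs guide methylation to matching copies. A MULE transcript may start in the element itself or be read through from a gene in which the element lies, and family counts do not separate these sources.

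By the name part before the last number, the families fell into 7 name groups. MuDR held 16 families, MUGvine 8, Mutavine 6, Jithouse 5, MUDRAVI and Hopvine 2 each, and Jitvine 1. Counts are given per family, pooled over all genomic copies, so no single locus or coordinate belongs to a value. EC libraries held 22280342 to 24209752 counted reads, against 13123072 to 23642329 in leaf, and MULE families took 70058 to 75625 of these reads in EC libraries, against 16487 to 32520 in leaf libraries. Leaf replicate 3 stood apart from the other leaf libraries. It had the lowest total, its 100 most read genes held 36.4% of its reads, against 15.1% to 18.8% in the other 5 libraries, and its Pearson correlation with other leaf libraries across tested features fell to 0.815, against at least 0.987 among EC libraries. Results that rest on this library are given with and without it. The gene identifiers matched no name in the reference table used here (0 matches), so tissue markers were not checked.

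MULE transcripts made up more of the RNA in EC than in leaf. The level was 3170 (95% Wilson interval 3147 to 3193), 3144 (3121 to 3168) and 3124 (3102 to 3146) reads per 1000000 counted reads (RPM) in EC replicates 1, 2 and 3. In leaf replicates 1, 2 and 3 it was 1375 (1361 to 1391), 1296 (1281 to 1311) and 1256 (1237 to 1276) RPM. The intervals cover counting error only, since reads from amplified libraries are not independent molecules. EC and leaf libraries did not overlap, with means of 3146 ± 23.0 RPM in EC and 1309 ± 60.7 RPM in leaf (SD, n = 3 each), a ratio of 2.40 with an SD of 0.0965 over the 9 pairs of libraries. The exact permutation test (two-sided throughout) returned p = 0.1, and no lower p can be reached with 3 libraries on each side. Without leaf replicate 3 the ratio was 2.36. With library sizes rescaled by TMM, a trimmed mean that sets its factor from the bulk of the features, the level was 2679 ± 71.9 in EC and 1563 ± 308 in leaf per 1000000 scaled reads (SD, n = 3 each), a ratio of 1.71, and the libraries again did not overlap. Without leaf replicate 3 the TMM-scaled ratio was 1.93. In bulk tissue, more cells that transcribe a family and more RNA per cell cannot be told apart.

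**Figure D1:**
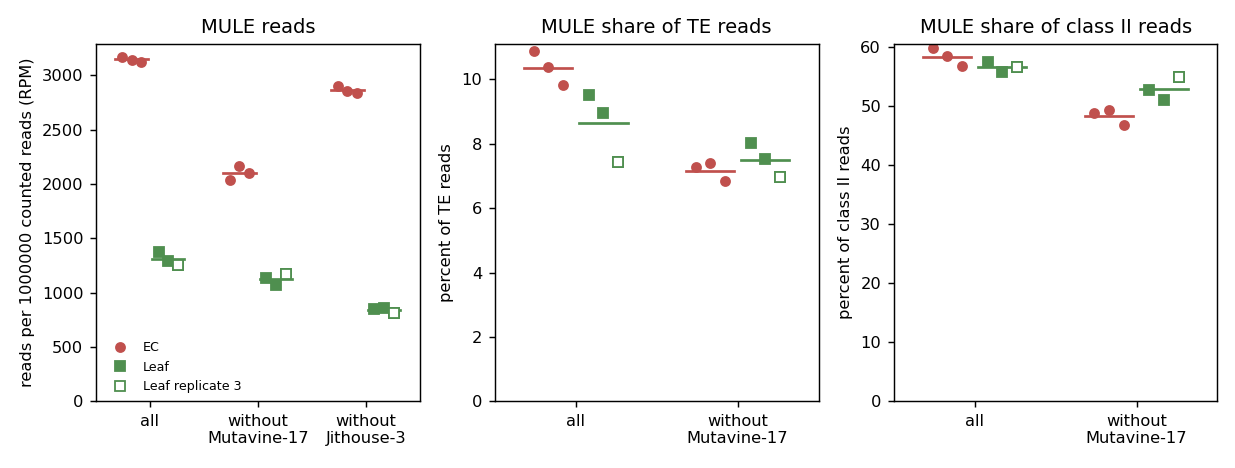
MULE reads per 1000000 counted reads (left), as a percent of TE reads (centre) and as a percent of class II reads (right), with 1 point per library, a line at the mean of 3, EC as circles and leaf as squares. EC lies above leaf in RPM with or without Mutavine-17 or Jithouse-3, whereas the higher MULE share of TE reads in EC, 10.4% against 8.63%, is not present once Mutavine-17 is left out, at 7.16% in EC and 7.50% in leaf, and widens without Jithouse-3 (not drawn), at 9.52% in EC and 5.71% in leaf.

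MULE reads also took a larger part of all TE reads in EC. The share of TE reads, counted without the Caulimovirus families, was 10.9%, 10.4% and 9.81% in EC replicates 1, 2 and 3, against 9.51%, 8.95% and 7.43% in leaf replicates 1, 2 and 3. The 3 EC shares were all above the 3 leaf shares (exact permutation test, p = 0.1, the smallest possible), with means of 10.4% ± 0.540 in EC and 8.63% ± 1.08 in leaf (SD, n = 3 each). The EC over leaf ratio of these shares was 1.20, and 1.12 without leaf replicate 3. The size and direction of the difference in share depended on single families. Mutavine-17, the family with the largest rise in RPM, was removed from both MULE and TE reads. The share was then 7.16% ± 0.294 in EC and 7.50% ± 0.516 in leaf (SD, n = 3 each), and the libraries overlapped. Removal of Jithouse-3, the family with the largest fall, gave 9.52% ± 0.535 in EC and 5.71% ± 0.692 in leaf (SD, n = 3 each), without overlap. Both families were picked by their change in these same data. The direction of each shift was therefore set in advance, and these shares were not tested. Of the net difference in TE reads between the tissues, MULE families carried 12.1%.

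Against other DNA transposons, the comparison depended on the superfamily and on single families. The MULE part of Class II reads (MULE, CACTA, hAT, Harbinger and Helitron) was 58.4% ± 1.59 in EC and 56.6% ± 0.809 in leaf (SD, n = 3 each), with overlapping libraries (exact permutation test, p = 0.2). Without Mutavine-17 the order turned, to 48.4% ± 1.30 in EC and 52.9% ± 1.90 in leaf (SD, n = 3 each), and the libraries then did not overlap. Without Jithouse-3 it was 56.1% ± 1.71 in EC and 45.5% ± 0.0820 in leaf (SD, n = 3 each), with EC above leaf in all libraries. Picking these families by their change set the direction of both shifts in advance, so these shares were not tested. There were 8.01 ± 0.230 MULE reads per CACTA read in EC and 6.84 ± 0.495 in leaf, and 2.88 ± 0.146 per hAT read in EC and 2.57 ± 0.110 in leaf (SD, n = 3 each), without overlap in either case (exact permutation test, p = 0.1). Per Harbinger read the values were 4.18 ± 0.492 in EC and 4.36 ± 0.552 in leaf (SD, n = 3 each), which overlapped (exact permutation test, p = 0.7).

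For single families, the quasi-likelihood test of edgeR was fitted on genes and TE families together, with Benjamini-Hochberg adjustment over the 21550 features tested. Its fold changes were on the TMM scale, so they differ from ratios of the RPM levels given beside them. A filter on low counts kept 30 of the 40 MULE families. Of these, 16 (53.3%) rose in EC and 2 (6.67%) fell at an adjusted p under 0.05, and 12 did not pass. The shares over all features tested were 24.9% higher and 29.2% lower in EC. Over all 214 tested TE families they were 36.4% and 7.01%, and over the 39 tested Class II families other than MULE 56.4% and 5.13%, so the MULE share of rises was above that of all features and close to that of other DNA transposons. The median log2 fold change (EC over leaf) was 0.79 over the tested MULE families, against 0.71 over other Class II families, 0.57 over all TE families and −0.04 over all features. Rises of 2-fold or more were called in 10 MULE families (33.3%), against 17.3% of all features, 18.7% of TE families and 17.9% of other Class II families. In RPM, 23 tested families (76.7%) had their 3 EC values above their 3 leaf values, against 48.6% of all features, 77.1% of TE families and 87.2% of other Class II families. The EC values were below the leaf values in 3, against 24.4%, 5.61% and 2.56%. After TMM scaling the counts were 21 families above, against 35.4%, 48.6% and 66.7% of these sets, and 3 below, against 34.1%, 11.7% and 7.69%.

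The direction held for most families under other scalings. The log2 fold change was above 0 in 25 of the 30 families with TMM, against 49.0% of all features, 76.6% of TE families and 87.2% of other Class II families. With library sizes alone it was above 0 in 27, where the median of all features itself stood at 0.41 and that of MULE families at 1.24. That scaling called 20 families higher and 1 lower in EC, against 33.7% and 22.2% of all features. In a model of TE families alone, which centres them near 0, it was above 0 in 19, against 49.8% of the 211 TE families in that model, and 10 families were called higher and 3 lower, against 19.9% and 22.3%. In that model the calls of MUDRAVI2, MuDR-8, MuDR-13, MuDR-18, MuDR-21 and MuDR-22 were lost, with adjusted p-values of 0.0574 (MuDR-21) to 0.814 (MuDR-13, edgeR), and MuDR-9 was called lower. Without leaf replicate 3, 20 of the 30 families rose and 3 fell, against 38.5% and 41.3% of all features, and all 16 families called with every library were among them. The additional rises were in Hopvine-2, Jithouse-2, MuDR-N1 and Mutavine-14.

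**Figure D2:**
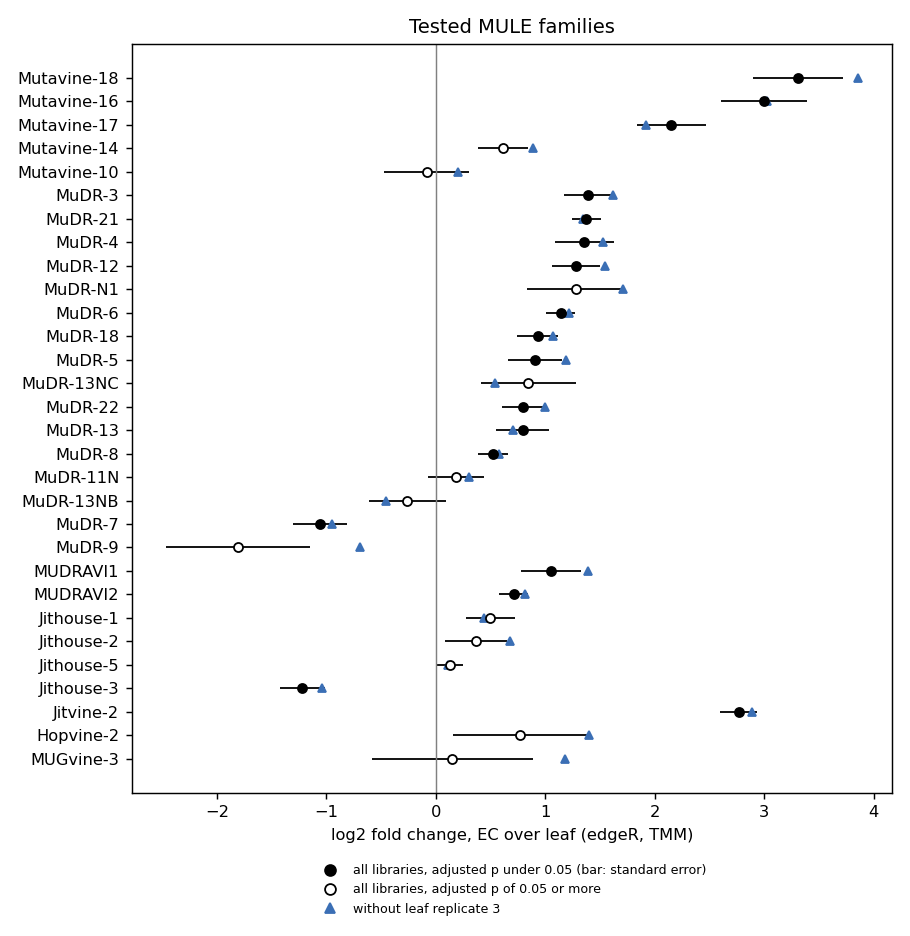
Log2 fold change (EC over leaf, horizontal axis) of the 30 tested MULE families, grouped by name, with the standard error as a bar, filled circles for an adjusted p under 0.05 and triangles for the fit without leaf replicate 3. Values run from −1.81 (MuDR-9) to 3.31 (Mutavine-18), and 25 lie above 0.

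The largest fold changes among the tested MULE families were in Mutavine-18, Mutavine-16, Jitvine-2 and Mutavine-17, all higher in EC. Mutavine-17 had the most reads of all MULE families, with 25639, 21827 and 24672 counts in EC replicates 1, 2 and 3, against 5585, 4885 and 1073 counts in leaf replicates 1, 2 and 3. All EC libraries lay far above the leaf libraries, of which replicate 3 was the lowest also in RPM (81.8, against 236 and 223 in the other leaf libraries). Its level was 1045 ± 81.2 RPM in EC and 180.3 ± 85.6 RPM in leaf (SD, n = 3 each), and edgeR gave a 4.44-fold higher level in EC (log2 fold change 2.15, standard error 0.32, adjusted p = 0.0032). Without leaf replicate 3 the log2 fold change was 1.92 (adjusted p = 1.28e-05, edgeR). With every library and library sizes alone it was 2.53.

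Mutavine-18 had the largest fold change of the tested MULE families. It had 6634, 6265 and 6447 counts in EC replicates 1, 2 and 3, against 385, 347 and 338 counts in leaf replicates 1, 2 and 3. In RPM the EC libraries lay at 266 to 294 and the leaf libraries at 15.8 to 25.8, with leaf replicate 3 the highest. The level was 9.91-fold higher in EC (log2 fold change 3.31, standard error 0.41, adjusted p = 0.00192, edgeR), and 3.86 on the log2 scale without leaf replicate 3 (adjusted p = 5.98e-07, edgeR). Mutavine-16 was rare, with 39, 47 and 66 counts in EC and 7, 3 and 2 counts in leaf replicates 1, 2 and 3. Its level was 7.99-fold higher in EC (log2 fold change 3.00, standard error 0.40, adjusted p = 0.00216, edgeR).

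The Mutavine group was not uniform. Mutavine-14 held 1445, 1669 and 1809 counts in EC and 721, 726 and 455 counts in leaf replicates 1, 2 and 3, a log2 fold change of 0.61 (standard error 0.23) that did not pass (adjusted p = 0.0656, edgeR). Without leaf replicate 3 it was 0.89 and passed (adjusted p = 1.18e-04, edgeR). Mutavine-10 overlapped between the tissues, with 25 to 41 counts in EC libraries and 16 to 27 counts in leaf libraries (log2 fold change −0.08, standard error 0.39, adjusted p = 0.868, edgeR), and its sign turned with library sizes alone. Mutavine-15 had at most 4 counts in any library and was not tested. Summed over its 6 families, the group stood at 1400.3 ± 84.7 RPM in EC and 234 ± 78.2 RPM in leaf (SD, n = 3 each), a ratio of 5.99 and without leaf replicate 3 of 5.02, with no overlap of libraries (exact permutation test, p = 0.1, the smallest possible).

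Jitvine-2, the only Jitvine family in the table, was also among the families with the largest rises. It had 1071, 1320 and 1289 counts in EC replicates 1, 2 and 3, against 136, 135 and 66 counts in leaf replicates 1, 2 and 3. In RPM the EC libraries stood at 47.4 to 59.2, far above the leaf libraries, which were close to each other at 5.03 to 6.16. The level was 6.81-fold higher in EC (log2 fold change 2.77, standard error 0.17, adjusted p = 3.14e-04, edgeR), the lowest adjusted p among MULE families.

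**Figure D3:**
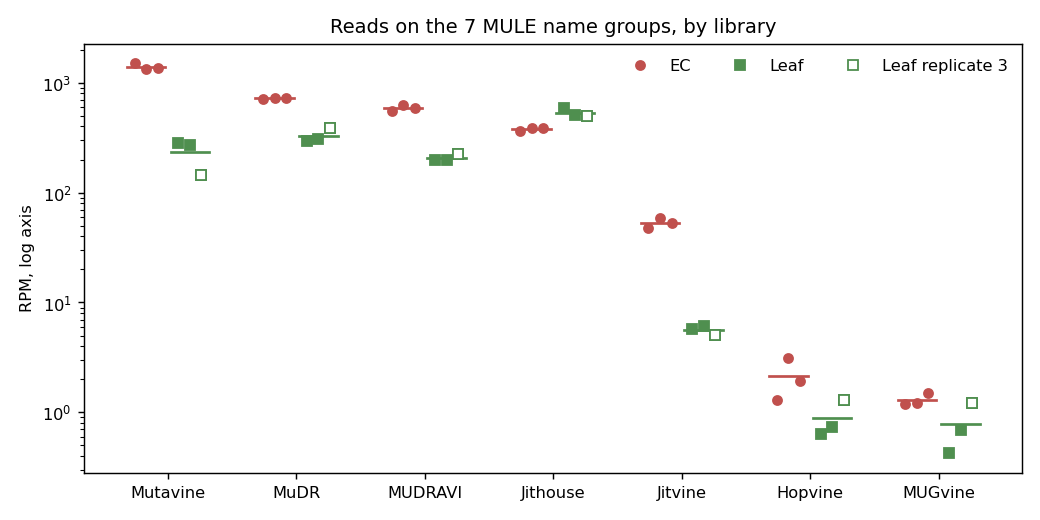
Summed RPM (log axis) of the 7 MULE name groups, with 1 point per library and a line at the mean of 3, EC as circles, leaf as squares and leaf replicate 3 as an open square. EC lies above leaf in Mutavine, MuDR, MUDRAVI and Jitvine and below it in Jithouse (379 against 532 RPM on average), and the Hopvine and MUGvine libraries overlap (for Hopvine 2.12 RPM in EC and 0.887 RPM in leaf on average).

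Most MuDR families rose by a moderate amount. All 16 were tested. In EC 10 rose and MuDR-7 fell, with 5 not past the threshold, and the median log2 fold change was 0.88. Over all features tested 24.9% rose and 29.2% fell, and over Class II families other than MULE 56.4% and 5.13%. The MuDR rises lay between 0.52 and 1.39 on the log2 scale, with standard errors of 0.13 to 0.27. Their adjusted p-values were 8.93e-04 to 0.0367 (edgeR). Of these rises, 5 exceeded 2-fold, a size called in 17.3% of all features and 17.9% of other Class II families. MuDR-6 and MuDR-21 held the most reads. MuDR-6 had 4255, 4714 and 4939 counts in EC and 1668, 1592 and 727 counts in leaf replicates 1, 2 and 3, 2.21-fold higher in EC (adjusted p = 0.00139, edgeR). MuDR-21 had 4606, 4347 and 4396 counts in EC and 1451, 1421 and 516 counts in leaf replicates 1, 2 and 3, 2.59-fold higher in EC (adjusted p = 8.93e-04, edgeR). In both, the EC libraries exceeded the leaf libraries with a wide gap, and leaf replicate 3 was the lowest in RPM. After TMM scaling leaf replicate 3 was the highest leaf library for MuDR-6, at 84.4 against 73.7 and 75.0, and still the lowest for MuDR-21. The MuDR group total in RPM had an EC over leaf ratio of 2.18, and of 1.51 after TMM scaling. On that scale EC libraries stood at 608 to 618, against 310, 314 and 591 in leaf replicates 1, 2 and 3.

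MuDR-12, MuDR-3 and MuDR-4 were the other families of this group past 2-fold. MuDR-12 had 2635, 2539 and 2676 counts in EC and 748, 719 and 455 counts in leaf replicates 1, 2 and 3 (2.43-fold, adjusted p = 0.00543, edgeR). MuDR-3 had 500, 501 and 599 counts in EC and 137, 147 and 83 counts in leaf (2.62-fold, adjusted p = 0.00405, edgeR). These 2 families were even within each tissue in RPM, but after TMM scaling leaf replicate 3 was the highest leaf library in both. MuDR-4 was more spread in EC, with 256, 349 and 474 counts in EC and 101, 101 and 54 counts in leaf (2.56-fold, adjusted p = 0.00885, edgeR).

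The smaller rises were in MuDR-18, MuDR-5, MuDR-22, MuDR-13 and MuDR-8. MuDR-18 had 361, 340 and 415 counts in EC and 148, 141 and 73 counts in leaf replicates 1, 2 and 3 (log2 fold change 0.93). MuDR-5 had 383, 419 and 460 counts in EC and 146, 156 and 96 counts in leaf (0.91 on the log2 scale). None of these libraries overlapped between the tissues in RPM. MuDR-22 had 1009, 1076 and 1299 counts in EC and 485, 441 and 257 counts in leaf (0.79 on the log2 scale). MuDR-13 had 139, 186 and 221 counts in EC and 98, 84 and 28 counts in leaf (0.79 on the log2 scale). MuDR-8 had 479, 502 and 546 counts in EC and 278, 279 and 119 counts in leaf (0.52 on the log2 scale). The calls of MuDR-5, MuDR-13 and MuDR-8 were lost when any library other than leaf replicate 3 was left out, with adjusted p-values of 0.0711 to 0.0858, 0.0502 to 0.130 and 0.0627 to 0.0843 (edgeR). That of MuDR-22 was lost without EC replicate 2, EC replicate 3 or leaf replicate 1 (adjusted p of 0.0542 to 0.0655, edgeR).

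A pair of MuDR families had their lower level in EC. MuDR-7 was sparse, with 15, 18 and 18 counts in EC and 27, 27 and 13 counts in leaf replicates 1, 2 and 3, and fell to 0.739 ± 0.0718 RPM in EC, against 1.12 ± 0.122 RPM in leaf (SD, n = 3 each), with a log2 fold change of −1.06 (standard error 0.25, adjusted p = 0.0154, edgeR). The call was lost without any one EC library (adjusted p of 0.0780 to 0.0973, edgeR). It was also lost with library sizes alone (log2 fold change −0.61, adjusted p = 0.0989, edgeR). MuDR-9 had 1058, 1135 and 1240 counts in EC and 1582, 1443 and 2635 counts in leaf replicates 1, 2 and 3. All EC libraries lay below the leaf libraries in RPM, but leaf replicate 3, at 201 RPM against 66.9 and 65.8 in the others, set most of the difference. The log2 fold change was −1.81 (standard error 0.66, adjusted p = 0.0620, edgeR) with it and −0.69 (adjusted p = 9.63e-05, edgeR) without it. MuDR-9 was also called lower with DESeq2 (adjusted p = 0.0129), in the model of TE families alone (0.0100, edgeR) and without leaf replicate 1 or 2 (0.0488 and 0.0436, edgeR). It was not called without any one EC library (0.158 to 0.165, edgeR).

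MuDR families with an N in the name, which in Repbase usage marks non-autonomous elements, had few reads and no calls. They are MuDR-11N, MuDR-13NB, MuDR-13NC and MuDR-N1, with 32 to 107 counts per EC library and 7 to 61 counts per leaf library. MuDR-N1 came nearest, with 33, 32 and 57 counts in EC and 10, 10 and 9 counts in leaf replicates 1, 2 and 3 (log2 fold change 1.28, standard error 0.44, adjusted p = 0.0540, edgeR). It passed with DESeq2 (adjusted p = 0.0401) and without leaf replicate 3 (adjusted p = 0.00509, edgeR). For MuDR-13NB the libraries overlapped, and its log2 fold change of −0.26 (standard error 0.35) turned its sign with library sizes alone.

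Both MUDRAVI families were higher in EC. MUDRAVI1 had 11089, 12343 and 12493 counts in EC replicates 1, 2 and 3, against 3891, 3625 and 2584 counts in leaf replicates 1, 2 and 3. No EC library was near a leaf library in RPM, and the level was 520.4 ± 31.6 RPM in EC and 176 ± 18.4 RPM in leaf (SD, n = 3 each). After TMM scaling leaf replicate 3 stood at 300, against 172 and 171 in leaf replicates 1 and 2 and 428 to 467 in EC. The log2 fold change was 1.05 on the TMM scale (standard error 0.27, adjusted p = 0.0221, edgeR) and 1.56 with library sizes alone. The MUDRAVI1 call was lost when any library but leaf replicate 3 was left out (adjusted p of 0.0650 to 0.0742, edgeR). Without leaf replicate 3 its log2 fold change was 1.39 (adjusted p = 1.11e-05, edgeR). MUDRAVI2 had 1502, 1555 and 1762 counts in EC and 788, 706 and 350 counts in leaf replicates 1, 2 and 3, a log2 fold change of 0.71 (standard error 0.13, adjusted p = 0.00667, edgeR). In the model of TE families alone its log2 fold change was 0.09 and the call was lost (adjusted p = 0.648, edgeR).

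Jithouse was the name group with the lower total in EC, and the difference came from 1 member. Jithouse-3 had 6115, 6395 and 7022 counts in EC replicates 1, 2 and 3, against 12318, 9647 and 5867 counts in leaf replicates 1, 2 and 3. In RPM the EC libraries lay at 271 to 290.05, all below the leaf libraries at 440.2 to 521. Jithouse-3 fell to 283 ± 10.3 RPM in EC, against 469 ± 44.8 RPM in leaf (SD, n = 3 each). With library sizes alone its log2 fold change was −0.74. On the TMM scale it was −1.22 (standard error 0.21, adjusted p = 0.00492, edgeR). This call was kept when any one library was left out, with adjusted p-values of 8.05e-05 to 0.0363 (edgeR). The group stood at 379 ± 15.9 RPM in EC and 532 ± 51.0 RPM in leaf (SD, n = 3 each), a ratio of 0.712.

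Other Jithouse families had higher mean RPM in EC but no call. Jithouse-5 had 1722, 1873 and 2053 counts in EC and 1456, 1402 and 519 counts in leaf replicates 1, 2 and 3, with a log2 fold change of 0.13 (standard error 0.11, adjusted p = 0.374, edgeR). Jithouse-1 and Jithouse-2 had 132 to 187 counts per EC library and 31 to 100 counts per leaf library, with log2 fold changes of 0.50 and 0.36 (adjusted p of 0.111 and 0.315, edgeR). In the model of TE families alone, the log2 fold changes of Jithouse-1, Jithouse-2 and Jithouse-5 were −0.18, −0.20 and −0.53. Without leaf replicate 3, Jithouse-2 passed with a log2 fold change of 0.67 (adjusted p = 0.00526, edgeR). Jithouse-4, with 2 to 11 counts per library, was not tested.

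**Figure D4:**
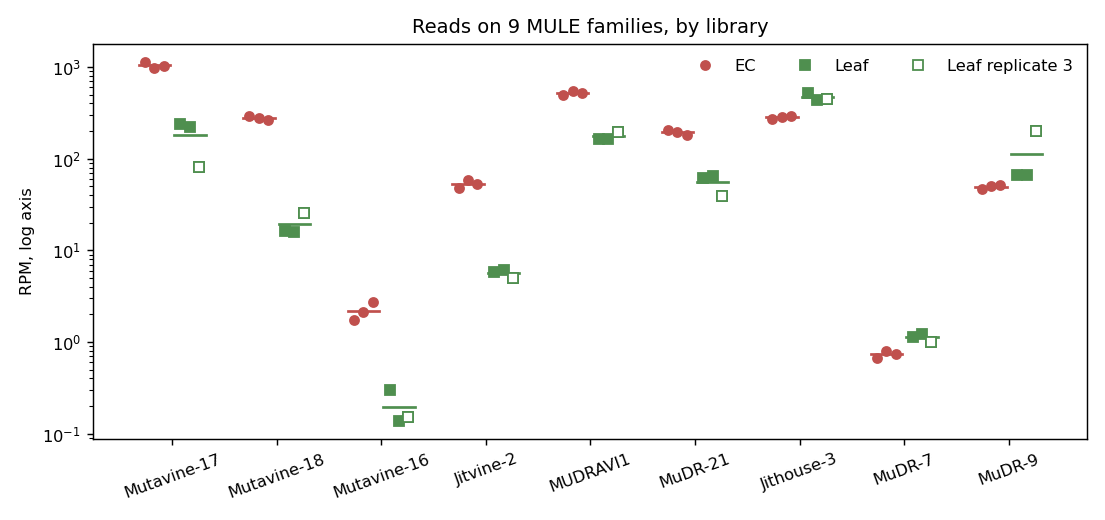
RPM (log axis) of 9 MULE families by library, with lines at the mean of 3, EC as circles, leaf as squares and leaf replicate 3 as an open square. EC libraries lie above leaf for 6 families and below it for Jithouse-3, MuDR-7 and MuDR-9, and leaf replicate 3 is far from the other leaf libraries in Mutavine-17 (81.8 RPM) and MuDR-9 (201 RPM).

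Hopvine and MUGvine families had few reads. A count of 3, taken as the floor, corresponds to 0.124 to 0.135 RPM in EC libraries and 0.127 to 0.229 RPM in leaf libraries. Hopvine-2 had 24, 69 and 43 counts in EC and 14, 14 and 16 counts in leaf replicates 1, 2 and 3, overlapped in RPM and did not pass (adjusted p = 0.328, edgeR). Without leaf replicate 3 it had a log2 fold change of 1.40 (adjusted p = 0.0391, edgeR). MUGvine-3, the only tested MUGvine family, had 13 to 19 counts per EC library and 4 to 11 per leaf library (adjusted p = 0.875, edgeR), and its log2 fold change of 0.15 turned negative without EC replicate 1, leaf replicate 1 or leaf replicate 2 and in the model of TE families alone.

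The 10 families that were not tested were Hopvine-1, Jithouse-4, Mutavine-15 and MUGvine-1, 2, 4, 5, 6, 7 and 8. MUGvine-1 and MUGvine-2 had no count in any library, and the other 8 had at most 17 counts in a library. In RPM the EC values of Jithouse-4 and Mutavine-15 were all above the leaf values and those of MUGvine-8 all below, but these families had at most 36 counts over the 6 libraries.

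The families that held the MULE reads differed between the tissues. Mutavine-17 led in EC with 33.2% ± 2.39 of MULE reads, against 13.6% ± 6.17 in leaf (SD, n = 3 each), and Jithouse-3 led in leaf, with 8.99% ± 0.389 in EC and 35.8% ± 1.96 in leaf (SD, n = 3 each). Neither family had overlapping shares between EC and leaf (exact permutation test, p = 0.1, the smallest possible). There were 3.71 ± 0.424 Mutavine-17 reads per Jithouse-3 read in EC and 0.381 ± 0.174 in leaf (SD, n = 3 each), a ratio that no scaling of libraries alters. Second in EC was MUDRAVI1 with 16.5% ± 1.06, against 13.5% ± 1.95 in leaf (SD, n = 3 each), where its libraries overlapped (exact permutation test, p = 0.2). Within leaf, the order of Mutavine-17 and MUDRAVI1 turned on leaf replicate 3. Mutavine-17 held 17.2% in each of leaf replicates 1 and 2, where MUDRAVI1 held at most 12.8%, but 6.51% in leaf replicate 3, where MUDRAVI1 held 15.7%. Within EC, Jithouse-3 and Mutavine-18 did not differ beyond their spread, at 8.99% and 8.91%.

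Read counts depend on the length and copy number of a family, which were not used here, so these shares rank reads and not the activity of copies. Mutavine-18 took 8.91% ± 0.374 of MULE reads in EC and 1.49% ± 0.489 in leaf (SD, n = 3 each). As a share of MULE reads, 9 of the 30 tested families had all EC libraries above all leaf libraries and 7 had them all below. Set against MULE reads in the same way, 14.6% of all features lay above and 52.4% below. The shares were 16.8% and 38.3% for all TE families, and 15.4% and 28.2% for other Class II families. The 9 were Jitvine-2, Mutavine-16, Mutavine-17, Mutavine-18 and MuDR-3, 4, 6, 12 and 21. The 7 were Jithouse-2, 3 and 5, MuDR-7, MuDR-9, MuDR-11N and Mutavine-10, of which Jithouse-2, Jithouse-5 and MuDR-11N had higher RPM in each EC library than in any leaf library.

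**Figure D5:**
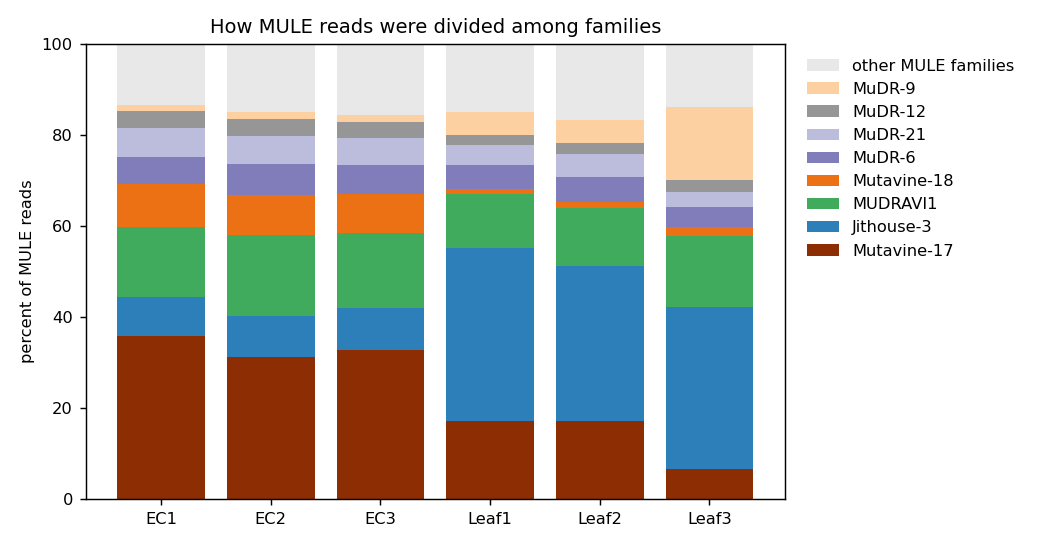
Percent of MULE reads (vertical axis) on the 8 families with the most reads and on all other MULE families, as 1 stacked bar per library. Mutavine-17 holds 31.2% to 35.8% in EC libraries and 6.51% to 17.2% in leaf libraries, and Jithouse-3 holds 8.55% to 9.29% in EC libraries and 34.0% to 37.9% in leaf libraries.

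The net gain of MULE reads in EC was 1837 RPM. Families with higher mean RPM in EC gained 2085 RPM together, and those with lower mean RPM in EC changed by −249 RPM. Mutavine-17 carried 47.1% of the net gain, MUDRAVI1 18.8%, Mutavine-18 14.2%, MuDR-21 7.54% and MuDR-6 7.36%, whereas Jithouse-3 changed by −10.2% and MuDR-9 by −3.35%. Without Mutavine-17 the level of the remaining MULE families was 2101 ± 65.5 RPM in EC and 1129 ± 51.6 RPM in leaf (SD, n = 3 each), a ratio of 1.86, and without Mutavine-18 as well the ratio was 1.64. Without Jithouse-3 the ratio was 3.41, with 2863 ± 33.0 RPM in EC and 839.8 ± 26.4 RPM in leaf (SD, n = 3 each). Each of these sums was higher in the 3 EC libraries than in any leaf library. Of the 38 families with any read, 34 had their higher mean RPM in EC, untested families with few reads included. The share over all features was not taken for this measure. Over all tested features the median log2 fold change with library sizes alone was itself 0.41.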

How the data were processed

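Paired-end reads from rRNA-depleted RNA were trimmed by the authors, freed of tRNA and rRNA and mapped to the PN40024 genome with HISAT2, with multiple mapping positions allowed. The deposited values are raw counts of genes and TE families, made by the authors in 1 run of TEtranscripts without normalisation. The paper reports that chloroplast-like genes, the most read in leaf, were taken out of its counts before testing. The table holds 31843 genes, which falls short of the annotation the paper describes by just the number of genes taken out. Their identifiers were not looked up here. With these genes absent, counted reads exclude them and RPM is higher, more so in leaf. TEtranscripts divides reads with several positions among copies. Whether counting used strand is not given in the sources used here. The table had 6 columns of counts and 0 others.

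Counts were tested with edgeR 4.0.16 in R 4.3.3 (filterByExpr with a minimum count of 10 and total of 15, TMM, robust glmQLFit, glmQLFTest). Standard errors were the size of the log2 fold change over the square root of F. Exact permutation tests and 95% Wilson intervals used scipy 1.17.1, and figures matplotlib 3.10.9. The edgeR fit was run on simulated counts with known changes. These had less spread between libraries than the data and larger changes than most MULE families. That run therefore cannot give the error rate of the calls made here. All 6 libraries entered each fit unless stated. Alternatives were DESeq2 1.42.0, its size factors, library sizes alone, TMM from genes alone, TE families alone, other filters, limma-voom (limma 3.58.1), a replicate block, a 2-fold limit and leaving out each library.

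Counts per library are given for families with an adjusted p under 0.05 and for the 5 with the most reads, and also for others named in the text. The members and lists were chosen with earlier results of these data known. Small RNA and methylation data, family sequences and copy positions were not used here.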

Additional observations from a re-analysis of the deposited data

How the results depend on the processing

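The number of MULE families higher in EC was 16 (53.3%), against 24.9% of all features, and lay between 11 and 20 when 1 library was left out. The number lower in EC was 2 (6.67%), against 29.2% of all features, and lay between 1 and 3. The 20 came without leaf replicate 3, where 38.5% of all features were higher. This share was not taken for the other left-out fits or the replicate block, so those counts cannot be set against all features. A 2-fold limit gave 10 higher, against 17.3% of all features. The model of TE families alone also gave 10, against 19.9% of TE families in that model. The number lower was 1 with library sizes alone, against 22.2% of all features, and 1 with the replicate block. The block left 13 families higher, and without it there were 16. The labels do not say that equal replicate numbers mark shared material, so the samples were treated as sharing only a number. Correlations of deviations from the tissue means were −0.0125, 0.0965 and 0.0961 for numbers 1, 2 and 3. They cannot decide on pairing, because leaf replicate 3 stood apart and leaf replicates 1 and 2 deviated together. Against leaf replicates 1, 2 and 3, EC replicate 2 gave 0.102, 0.0965 and −0.104, and EC replicate 3 gave −0.0901, −0.0925 and 0.0961. EC replicate 3 correlated most with its own number, and EC replicates 1 and 2 did not. Calls of 12 of the 18 called families were kept with any 1 library left out.

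The EC over leaf ratio of MULE RPM was 1.71 over TMM-scaled library sizes, 1.20 over TE reads, 1.86 without Mutavine-17 (the family with the most reads and the largest rise) and 3.41 without Jithouse-3 (the largest fall), and it lay between 2.36 and 2.47 with 1 library left out. The ratio of the MULE share of TE reads was 1.20, turned to 0.954 without Mutavine-17, was 1.67 without Jithouse-3, and lay between 1.12 and 1.27 with 1 library left out. That of the share of Class II reads was 1.03, turned to 0.914 without Mutavine-17, was 1.23 without Jithouse-3, and lay between 1.02 and 1.05 with 1 library left out.

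Signs turned in the model of TE families alone for Jithouse-1 (−0.18), Jithouse-2 (−0.20), Jithouse-5 (−0.53), MUGvine-3 (−0.31), MuDR-11N (−0.45) and MuDR-8 (−0.11, log2). With library sizes alone MuDR-13NB stood at 0.13 and Mutavine-10 at 0.39. With 1 library left out, MUGvine-3 ranged from −0.38 to 1.18 and Mutavine-10 from −0.33 to 0.21. The MUGvine total had a ratio of 1.67 in RPM and 0.860 over TE reads. Of these, MuDR-8 alone was called in the fit of all libraries.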

Other observations

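In RPM, leaf replicate 3 held about as much MULE RNA as the other leaf libraries, at 0.941 times the mean of leaf replicates 1 and 2. After TMM scaling its MULE level was the highest in leaf, at 1914 against 1437 and 1338 in leaf replicates 1 and 2. Leaf replicate 3 also divided its MULE reads differently. Its Mutavine-17 level in RPM was 0.356 times the mean of leaf replicates 1 and 2, and its MuDR-9 level 3.02 times. Against leaf replicate 3 alone, mean RPM in EC was 12.8 times for Mutavine-17 and 0.247 times for MuDR-9, and against the mean of the other leaf libraries 4.55 and 0.748 times. What sets leaf replicate 3 apart was not tested.

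MULE reads were concentrated on few families in both tissues. The 3 families with the largest mean shares held 58.7% of MULE reads in EC and 62.9% in leaf, and 90% of MULE reads lay on 10 families in EC and 9 in leaf.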
